A study of Mus musculus with 17 samples.

Results

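The genes described here encode the proteins of the mitochondrial ribosome, measured here as RNA in frontal cortices of males of the mouse strain FVB/N. Members were all protein-coding genes whose GENCODE M21 symbol begins with Mrpl or Mrps followed by a digit, without pseudogene symbols. This rule found 78 genes of the 46073 in the files, 49 named Mrpl for the large subunit and 29 named Mrps for the small subunit. The rule used symbols alone, and all 78 members passed the filter on low values described below. The study used a Tet-off design, in which a CamK driver supplies a transactivator to forebrain neurons and that transactivator switches on a transgene for the microRNA miR-211, while doxycycline blocks it. The dTgDox group (n = 3 libraries) had both transgenes, named dTg-211 in the labels, and 4 days of doxycycline. The dTg group had both transgenes and no doxycycline, with 6 libraries compared here (replicates 2 to 7) and replicate 1 given apart. The Ct group (n = 6) had the CamK driver and no miR-211 transgene. No doxycycline-treated Ct group was analysed, so an action of the drug itself and the switching off of miR-211 cannot be told apart.

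The mitochondrial ribosome translates the few messenger RNAs of the mitochondrial genome, all of which encode subunits of the respiratory chain and ATP synthase, on which neurons depend heavily for energy. All of its proteins are encoded in the nucleus, made in the cytosol and imported into the organelle, where they assemble with mitochondrial ribosomal RNA. Some descend from proteins of the bacterial ribosome, and others are found only in mitochondrial ribosomes.

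The microRNA that the transgene supplies is shown with its seed, the bases that pair with target RNAs, in capitals, because it is what separates dTg from Ct mice and matches to its seed can be read from the members' 3′UTRs. It lies at chr7:64205831-64205852 on the plus strand (RefSeq, GRCm38.p6).
mmu-miR-211-5p: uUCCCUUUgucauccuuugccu
A match to the whole seed followed by an A (AAAGGGAA, an 8mer site) was found in the longest annotated 3′UTR of 3 members, which is 3.85% of members against 7.09% of all genes tested that had an annotated 3′UTR. These sites, with flanking bases from the GENCODE M21 transcripts, have the 8mer in capitals.
Mrpl15: catagagtgatAAAGGGAAgaataaaaaca
Mrpl35: acctcggatggAAAGGGAActtcttcatac
Mrps33: ataaatgctatAAAGGGAAaaaa
A 7-base site was found in further members (5 pairing with base 8, 4 with an A after the pairing). No site was found in 66, which is 84.6% of members against 75.2% of all genes tested that had an annotated 3′UTR. Members have short 3′UTRs, with a median of 388.5 bases against 1182.5 bases for protein-coding genes tested that had an annotated 3′UTR.

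Each deposited file held FPKM values, a level per length of transcript and per sequencing depth, for 1 library. The depth was estimated from the size of a 1-read step in short single-exon genes as 21.6 to 31.1 M reads, and 15762 to 16085 genes had at least 1 FPKM in a library. The file labelled NTg (PTRE-miR-211 without CamK) was identical to the file labelled dTg 1, and its header also carries the dTg 1 name, so NTg was not compared. The library labelled dTg 1 stood apart. Its log2 values correlated at r = 0.864 to 0.879 with the other 15 libraries, which correlated at 0.937 to 0.967 with each other. The summed FPKM of 10 cerebellar markers was 3255 in dTg 1 and at most 113.7 elsewhere, and that of 8 markers of cortical excitatory neurons was 227.8 in dTg 1 and at least 1136 elsewhere. The labels do not say that each library came from a mouse of its own, and the header names of dTg 5, 6 and 7 share a number, so p-values measure the spread between libraries. In bulk tissue, fewer cells of a type and less RNA per cell cannot be told apart.

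Mitochondrial ribosomal protein RNAs were moderately abundant. The mean level of members in Ct ran from 5.55 FPKM to 86.9 FPKM, with a median of 27.2 FPKM against 7.55 FPKM for the 19064 genes tested. In Ct, 77 of 78 members lay above the median of all genes tested. The exception was Mrpl1, a protein of the mobile stalk beside the site where tRNAs leave, at 5.55 ± 0.43 FPKM (SD, n = 6). The other low members were Mrpl35 at 8.21 ± 0.38, Mrpl57 at 8.61 ± 0.71, Mrps30 at 9.34 ± 0.72 and Mrps31 at 9.63 ± 0.27 FPKM in Ct. The highest was Mrps21, a small-subunit protein with a bacterial counterpart, at 86.9 ± 8.4 FPKM, and the mitochondria-only protein Mrps33 was at 85.6 ± 6.6 FPKM. Those 2 differed by less than either SD. Mrpl30 at 74.6 ± 2.7, Mrpl48 at 69.2 ± 16.4 and Mrpl20 at 67.2 ± 6.6 FPKM followed, and Mrpl48 differed from both by less than its own SD. FPKM is a level per length, so these values can be set side by side between genes. The order is approximate, since the unit was inferred and the strand setting is not given.

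Most members varied little among Ct libraries, though no value over all genes tested was computed beside theirs. The median coefficient of variation (SD over mean) was 7.15%, and 60 of 78 members were under 10%. The steadiest was Mrpl11, part of the base of the stalk where translation factors bind, at 2.03%. The 4 members above 20% were Mrpl55, Mrpl2, Mrpl48 and Mrpl14, of which Mrpl55 reached 33.4%. In the annotation, exons of Mrpl48 share 708 bases with Rab6a on the opposite strand and those of Mrpl14 share 106 bases with Tmem63b. No shared exon bases are annotated for Mrpl55 and Mrpl2, the most variable of the 4. Exons of 33 members share bases with another annotated gene, 20 of them with a protein-coding gene on the opposite strand. The sources used here do not give whether reads were counted by strand, so the values of such members are uncertain.

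The first comparison asked whether members differed with the miR-211 transgene. None of the 78 members passed the threshold in dTg against Ct, and nor did any other gene (0% of 19064 genes called by limma with Benjamini-Hochberg adjustment, threshold 0.05). Without adjustment, 4 members and 607 genes in all had p under 0.05. The median log2 difference over members was -0.02, with 33 of 78 positive, against a median of 0.00 over all genes tested. The interquartile range over members was -0.06 to 0.03. For Mrpl members the median was -0.02 and for Mrps members it was also -0.02.

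Mrpl10 had the smallest p in that comparison and was the single member whose groups did not overlap. It forms the base of the stalk together with Mrpl11 and carries copies of Mrpl12. The gene lies at chr11:97041560-97049213 on the plus strand (GENCODE M21, GRCm38). Mrpl10 ranged over 31.7, 33.2 and 35.9 FPKM (lowest, median, highest) in the 6 dTg libraries, against 23.2, 28.6 and 30.9 FPKM in the 6 Ct libraries. Every dTg library from 2 to 7 thus lay above every Ct library, whereas dTg 1, at 28.6 FPKM, lay inside the Ct range. The log2 difference was 0.27 (SE 0.07), with an unadjusted p of 0.00121 and an adjusted p of 1 over all genes in limma, so it did not pass. Groups were separated in that direction for 15 of the 19064 genes and in the other for 10. In dTgDox, Mrpl10 stood at 32.1, 34.4 and 28.7 FPKM, within reach of both other groups.

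The next lowest p-values in dTg against Ct were those of Mrpl27, Mrps23 and Mrps31, all with lower means in dTg. Mrpl27, whose bacterial counterpart reaches into the peptidyl transferase centre, had 31.6, 39.3 and 47.1 FPKM (lowest, median, highest) in dTg, against 40.3, 47.1 and 54.5 FPKM in Ct. Its groups overlapped, with a log2 difference of -0.26 (SE 0.10). Mrps23, a mitochondria-only protein, had a log2 difference of -0.18 (SE 0.07), and Mrps31, also mitochondria-only, had -0.13 (SE 0.06). Mrpl35 and Mrps33, which carry the 8mer sites printed above, had log2 differences of -0.09 (SE 0.05) and -0.07 (SE 0.07), and Mrpl15 had -0.07 (SE 0.06). None of these passed the threshold, with an adjusted p of 1 each in limma.

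**Figure D1:**
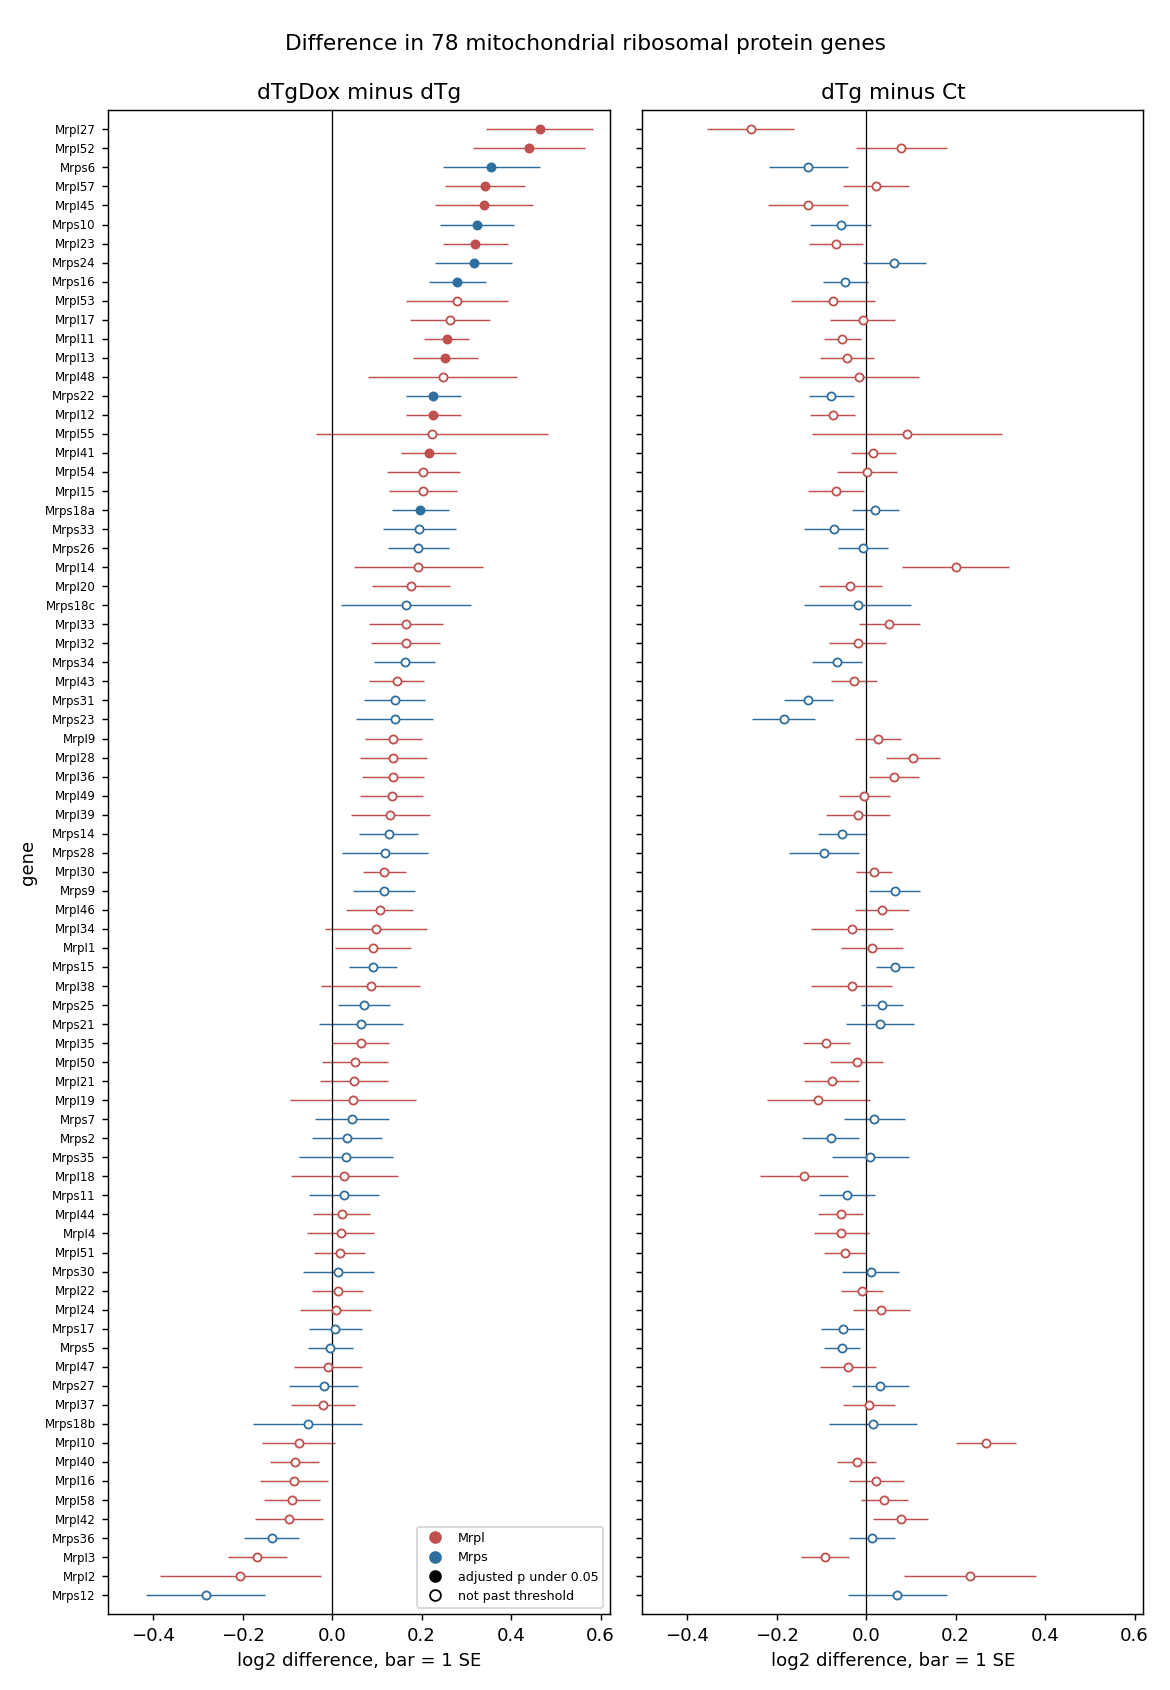
Log2 difference of each of the 78 members (points, with 1 SE) in dTgDox minus dTg (left) and dTg minus Ct (right), ordered by the left panel; red is Mrpl, blue is Mrps, and filled points passed an adjusted p of 0.05. In the left panel 64 of 78 members lie above 0 and 15 are filled, while in the right panel 33 lie above 0 and none is filled.

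The second comparison set dTgDox against dTg, mice with both transgenes, with and without 4 days of doxycycline. The libraries also differed in tissue content. Summed hippocampal markers were at 131.4 to 180 FPKM in dTgDox, against 12.8 to 17.8 in dTg and 13.3 to 15.6 in Ct. In comparisons with dTgDox, tissue content and treatment thus cannot be told apart. Of the 78 members 15 rose and none fell, by 1.15-fold to 1.38-fold. That is 19.2% of members higher, against 9.65% of all genes tested called higher, and 0% of members lower, against 9.22% of all genes called lower (limma, Benjamini-Hochberg adjusted p under 0.05). The median log2 difference was 0.12 over members, with an interquartile range of 0.02 to 0.20, and 64 of 78 were positive. Over all genes tested the median was -0.01 (interquartile range -0.19 to 0.18). In 17 members every dTgDox library lay above every dTg library, against 11.3% of all genes tested, and in 1 member every dTgDox library lay below, against 10.9% of all genes. The count of members that rose was 10 (12.8%) when dTg 1 was added to the fit, where 4.73% of all genes were called higher. Without dTgDox 1 it was 3, and that share of members, 3.85%, was below the 5.37% of all genes called higher. Without dTgDox 2 it was 9 (11.5%), against 6.77% of all genes, and without dTgDox 3 also 9, against 5.7% of all genes.

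Among large-subunit proteins, 9 Mrpl genes rose. Mrpl11 had the smallest p of all members. The gene lies at chr19:4962147-4966999 on the plus strand. It had 11.4, 11.5 and 10.9 FPKM in dTgDox, against 8.88, 9.35 and 9.92 FPKM (lowest, median, highest) in dTg and 9.56, 9.69 and 9.98 FPKM in Ct. All 3 dTgDox libraries lay above all 12 others. The log2 difference against dTg was 0.26 (SE 0.05, limma adjusted p = 0.00308), and it passed in each of the 9 fits that left out 1 dTgDox or dTg library. Mrpl12, which binds translation factors from the stalk that Mrpl11 and Mrpl10 support, had 39.4, 40.4 and 36.9 FPKM in dTgDox, against 30.7, 33.3 and 35.2 FPKM in dTg. These groups did not overlap either, with a log2 difference of 0.23 (SE 0.06, adjusted p = 0.0183). The base protein Mrpl10 had a log2 difference of -0.08 (SE 0.08, adjusted p = 0.58).

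Mrpl23, whose bacterial counterpart lines the rim of the tunnel through which the new chain leaves, had 41.3, 43.9 and 42.1 FPKM in dTgDox, against 29.4, 34.7 and 36.9 FPKM in dTg. The groups were separate, and the log2 difference of 0.32 (SE 0.07, limma adjusted p = 0.00691) also passed in all 9 fits with 1 library left out. The library dTg 1 stood above all of these at 45.5 FPKM, and with it in the fit Mrpl23, Mrpl45, Mrps6, Mrps18a and Mrps22 no longer passed. The gene lies at chr7:142532686-142540747 on the plus strand. Mrpl27 had the largest log2 difference among members, 0.46 (SE 0.12, adjusted p = 0.0134). It had 55.6, 53.4 and 52.8 FPKM in dTgDox, against the dTg range of 31.6 to 47.1 FPKM given above. All 3 dTgDox libraries were above dTg, and they lay within the upper reach of the Ct range, which ended at 54.5 FPKM, or just past it. Mrpl13, another protein with a bacterial counterpart, had a log2 difference of 0.25 (SE 0.07, adjusted p = 0.0254).

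The promoters of Mrpl11, Mrpl27 and Mrpl10 are shown, from 250 bases before to 50 bases after the RefSeq gene start (GRCm38.p6), as those of the member with the smallest p, of the member with the largest difference and of the stalk base protein that did not pass the test here. All are on the plus strand. Capitals mark motifs of factors known to act on nuclear genes for mitochondrial proteins: GCGCANGCG for NRF1, CCGGAAGT for ETS factors such as GABP and AAGATGGCG for YY1, and also GGGCGG for SP factors, each searched on both strands.
Mrpl11, chr19:4962056-4962355, no motif: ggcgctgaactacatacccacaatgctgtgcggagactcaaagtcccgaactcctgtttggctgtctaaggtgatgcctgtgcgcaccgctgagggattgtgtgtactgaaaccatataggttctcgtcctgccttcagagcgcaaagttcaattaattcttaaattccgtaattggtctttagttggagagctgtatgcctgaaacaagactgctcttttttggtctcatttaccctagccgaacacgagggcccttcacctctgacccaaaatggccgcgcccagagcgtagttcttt
Mrpl27, chr11:94653541-94653840, ETS motif at bases 196 to 203: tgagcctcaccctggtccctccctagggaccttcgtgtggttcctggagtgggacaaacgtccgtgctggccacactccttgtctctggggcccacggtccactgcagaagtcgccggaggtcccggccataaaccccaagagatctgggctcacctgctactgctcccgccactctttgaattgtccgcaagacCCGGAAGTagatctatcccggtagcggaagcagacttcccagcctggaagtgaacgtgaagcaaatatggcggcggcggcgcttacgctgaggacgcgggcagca
Mrpl10, chr11:97041332-97041631, NRF1 motif on the minus strand at bases 116 to 124: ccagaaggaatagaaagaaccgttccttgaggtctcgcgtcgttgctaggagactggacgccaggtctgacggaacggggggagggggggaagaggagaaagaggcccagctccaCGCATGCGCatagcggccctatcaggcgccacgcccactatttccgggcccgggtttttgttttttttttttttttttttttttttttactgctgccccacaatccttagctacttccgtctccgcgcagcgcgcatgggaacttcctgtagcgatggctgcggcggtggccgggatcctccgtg
A window was found for 69 of 78 members. The NRF1 letters were in 23.2% of these, against 13.7% of the 12053 tested genes with a window. The ETS letters were in 17.4% of members against 7.97% of tested genes, and the YY1 letters in 11.6% against 3.1%. The SP letters were in 49.3% of members against 65.8% of tested genes. In dTgDox against dTg, where 9.65% of all genes tested were called higher, 3 of the 16 members with the NRF1 letters rose and 11 of the 53 without them. For ETS the counts were 3 of 12 with and 11 of 57 without, for YY1 2 of 8 with and 12 of 61 without, and for SP 6 of 34 with and 8 of 35 without. The median log2 difference of members with and without the letters was 0.13 and 0.10 for NRF1, 0.17 and 0.11 for ETS, 0.05 and 0.13 for YY1, and 0.12 and 0.12 for SP. These counts are small and were not tested.

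The remaining large-subunit genes that rose are mitochondria-only proteins. Mrpl52 had 69.9, 68.4 and 74.2 FPKM in dTgDox, against 41.1, 53.6 and 64.3 FPKM in dTg and 39.5, 50.04 and 55.8 FPKM in Ct. Each dTgDox library was above every library of the other groups, and the log2 difference against dTg was 0.44 (SE 0.13, limma adjusted p = 0.0235). Mrpl57, among the 5 lowest members in Ct, had 12.6, 10.6 and 10.5 FPKM in dTgDox, against 7.64, 8.96 and 9.54 FPKM in dTg. Its log2 difference was 0.34 (SE 0.09, adjusted p = 0.0152), again without overlap. Mrpl45, which tethers the ribosome to the inner membrane, had a log2 difference of 0.34 (SE 0.11, adjusted p = 0.0406), and Mrpl41 had 0.22 (SE 0.06, adjusted p = 0.0222). Mrpl45 passed in 2 of the 9 fits with 1 library left out and Mrpl41 in 8.

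Among small-subunit symbols, 6 genes rose. Mrps16, a protein with a bacterial counterpart, had 44.3, 46.6 and 40.3 FPKM in dTgDox, against 33.6, 35.7 and 40.7 FPKM in dTg. The highest dTg library overlapped the lowest dTgDox library, and the log2 difference was 0.28 (SE 0.06, limma adjusted p = 0.00627). Mrps16 was the third member to pass in all 9 fits with 1 library left out. It lies at chr14:20389304-20393634 on the minus strand. Mrps10 had 29.8, 29.7 and 29.95 FPKM in dTgDox, against 19.8, 24.0 and 26.5 FPKM in dTg. Its dTgDox libraries were nearly equal and all above dTg, with a log2 difference of 0.32 (SE 0.08, adjusted p = 0.0142).

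Mrps24, the counterpart of a bacterial protein at the entry of the messenger RNA channel, had 42.5, 39.9 and 36.9 FPKM in dTgDox, against 28.3, 32.2 and 33.7 FPKM in dTg and 27.3, 29.7 and 36.7 FPKM in Ct. The dTgDox libraries were above all 12 others, with a log2 difference against dTg of 0.32 (SE 0.09, limma adjusted p = 0.0189). In the annotation, 226 exon bases of Mrps24 are shared with Urgcp on the same strand, so the split of reads between the 2 genes is uncertain. Mrps22, a mitochondria-only protein, had a log2 difference of 0.23 (SE 0.06, adjusted p = 0.0173) and groups that did not overlap. Mrps6 had 0.36 (SE 0.11, adjusted p = 0.0322) with overlapping groups, and it passed in 3 of the 9 fits with 1 library left out. Its exons share 159 bases with Slc5a3 and 305 bases with Gm49711 on the same strand, so its reads are uncertain in the same way.

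Mrps18a, Mrps18b and Mrps18c are related genes whose proteins take different places, that of Mrps18a being in the large subunit. Mrps18a had 45.7, 46.2 and 43.2 FPKM in dTgDox, against 37.6, 38.9 and 41.5 FPKM in dTg. Its dTgDox libraries were all above dTg, and the log2 difference was 0.20 (SE 0.06, limma adjusted p = 0.0429). It was the last member inside the threshold and passed in 1 of the 9 fits with 1 library left out. Mrps18b had a log2 difference of -0.06 (SE 0.12, adjusted p = 0.797) and Mrps18c had 0.17 (SE 0.15, adjusted p = 0.48). The first member outside the threshold was Mrpl17, at 0.26 (SE 0.09, adjusted p = 0.0518).

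At the other end, 14 members had negative differences and none passed. Mrps12, whose bacterial counterpart sits at the decoding centre, had 47.0, 31.8 and 47.7 FPKM in dTgDox, against 48.0, 50.5 and 53.2 FPKM in dTg and 37.5, 48.9 and 60.6 FPKM in Ct. All dTgDox libraries were below all dTg libraries, dTgDox 2 by far the lowest, but inside or below the wide Ct range. The log2 difference against dTg was -0.28 (SE 0.13, limma adjusted p = 0.162). Mrps36, now known as a component of the alpha-ketoglutarate dehydrogenase complex and not of the ribosome, had a log2 difference of -0.14 (SE 0.06, adjusted p = 0.148). Mrps30, which despite its symbol belongs to the large subunit, had 0.01 (SE 0.08, adjusted p = 0.931).

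**Figure D2:**
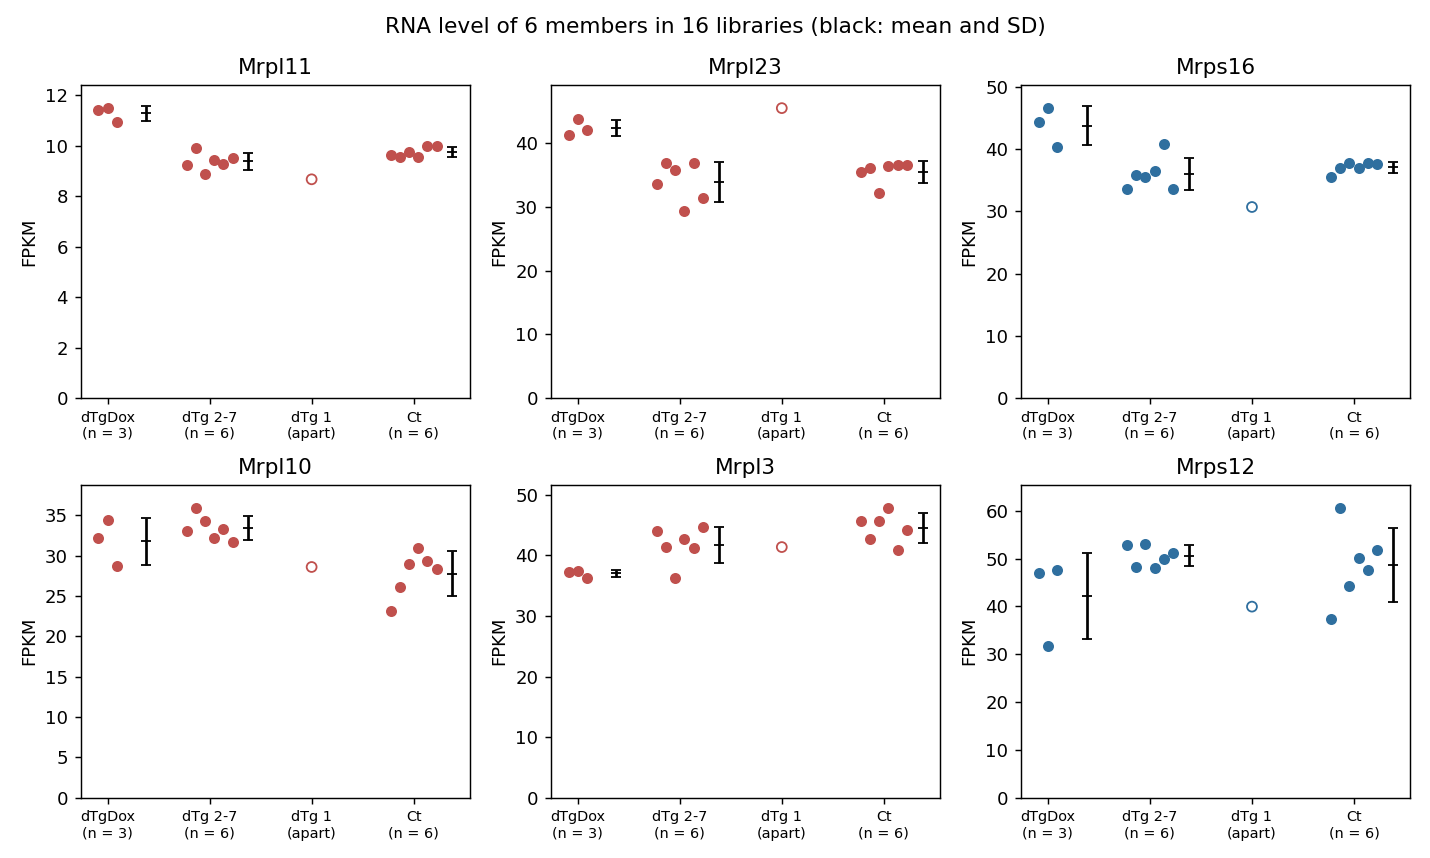
FPKM of 6 members in each library (points), with the mean and SD of each group in black and dTg 1 as an open circle; the axes start at 0. Mrpl11 and Mrpl23 are higher in all 3 dTgDox libraries than in dTg 2 to 7 and Ct, Mrps16 nearly so, Mrpl10 is higher in dTg than in Ct, Mrpl3 is lower in dTgDox than in Ct, and Mrps12 is below dTg in dTgDox.

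The third comparison set dTgDox against Ct and shares libraries with both others. Of the 78 members 11 rose and 1 fell, which is 14.1% higher against 9.86% of all genes tested, and 1.28% lower against 9.85% of all genes (limma, adjusted p under 0.05). The median log2 difference over members was 0.11, with 56 of 78 positive, and over all genes tested it was -0.01. The members that rose were Mrpl11, Mrpl23, Mrpl28, Mrpl41, Mrpl52 and Mrpl57 in the large subunit by symbol and Mrps10, Mrps15, Mrps16, Mrps18a and Mrps24 in the small, by 1.12-fold to 1.43-fold. Mrps24 had the smallest adjusted p, 0.00644, at a log2 difference of 0.38 (SE 0.09), and Mrpl52 the largest difference, 0.52 (SE 0.13, adjusted p = 0.00942). Those 2 genes passed in all 9 fits with 1 library left out. Mrps15, at 0.16 (SE 0.05, adjusted p = 0.0493), passed in 1. Mrpl28 had 41.9, 42.4 and 42.9 FPKM in dTgDox, above the Ct range of 32.9 to 41.5 FPKM, and a log2 difference of 0.24 (SE 0.08, adjusted p = 0.0338). Without dTgDox 1, 3 members rose, and that share, 3.85%, was below the 5.9% of all genes called higher. Without dTgDox 2, 4 rose (5.13%), again below the 7.01% of all genes. Without dTgDox 3, 7 rose (8.97%, against 6.04% of all genes), and without Ct 2, 19 rose (24.4%, against 9.31%). With dTg 1 added to the fit, 5 rose (6.41%, against 4.45%). Mrpl3 was called lower in each of these fits except that without dTgDox 3.

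Mrpl3, a protein with a bacterial counterpart near the peptidyl transferase centre, was the single member that fell. It had 37.4, 37.5 and 36.3 FPKM in dTgDox, against 40.8, 44.9 and 47.9 FPKM (lowest, median, highest) in Ct, and 36.2, 42.1 and 44.7 FPKM in dTg. All dTgDox libraries were below all Ct libraries and overlapped the lowest dTg library. The log2 difference was -0.26 against Ct (SE 0.07, limma adjusted p = 0.013) and -0.17 against dTg (SE 0.07, adjusted p = 0.093). Without dTg 4 the difference from dTg passed as well. The gene lies at chr9:105053239-105079888 on the plus strand, and 248 of its exon bases are shared with Gm38077 on the same strand.

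The large and the small subunit were set side by side. In dTgDox against dTg 9 of 49 Mrpl genes rose (18.4%) with a median log2 difference of 0.13, and 6 of 29 Mrps genes rose (20.7%) with a median of 0.12, beside 9.65% of all genes tested called higher. Placed by their position in the assembled ribosome, 10 of 51 large-subunit and 5 of 26 small-subunit proteins rose, with medians of 0.13 and 0.12. In dTgDox against Ct 6 Mrpl genes rose (12.2%) with a median of 0.13, and 5 Mrps genes rose (17.2%) with a median of 0.07, beside 9.86% of all genes called higher. Median levels in Ct were 26.8 FPKM for Mrpl and 28.9 FPKM for Mrps. By origin, 9 of 46 proteins with a bacterial counterpart rose in dTgDox against dTg (19.6%, median 0.12) and 6 of 31 mitochondria-only proteins rose (19.4%, median 0.13). These are counts and medians, and the subunits were not tested against each other.

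The ratio of Mrpl to Mrps genes was also read within each library, with no other pair of gene sets beside it. The mean log2(FPKM + 0.5) of Mrpl minus that of Mrps was -0.05 to -0.02 in dTgDox, -0.09 to 0.02 in dTg and -0.09 to -0.03 in Ct. The summed FPKM of Mrpl genes was 1.66 to 1.67 times that of Mrps genes in dTgDox, 1.60 to 1.72 times in dTg and 1.58 to 1.67 times in Ct. The library dTg 7 had the highest ratio of these 15 and the lowest summed Mrps, 862 FPKM.

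Averaged over all 78 members, the log2 level was 4.84 to 4.89 in dTgDox, 4.70 to 4.81 in dTg and 4.72 to 4.87 in Ct. The dTgDox libraries were above all dTg libraries, and overlapped Ct through a single library, Ct 2. Ct 2 held the highest Ct value for 37 of 78 members (47.4%), against 15.9% of all genes tested, and the lowest for 1. The summed FPKM of members was 2633 to 2691 in dTgDox, 2346 to 2564 in dTg and 2363 to 2687 in Ct. That made up 0.387% to 0.398%, 0.345% to 0.379% and 0.356% to 0.391% of all FPKM in those groups. The 0.398% is that of dTgDox 3, where mt-Co1 was listed at 0, which lowers all FPKM and raises the share. In dTgDox 1 and 2 mt-Co1 was at 17988 and 16842 FPKM. The share in dTg 2, 0.373%, is raised in the same way. The median log2 difference of members from the dTg mean was 0.12, 0.12 and 0.10 in dTgDox 1, 2 and 3, with 60, 62 and 54 of 78 members above the dTg mean.

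**Figure D3:**
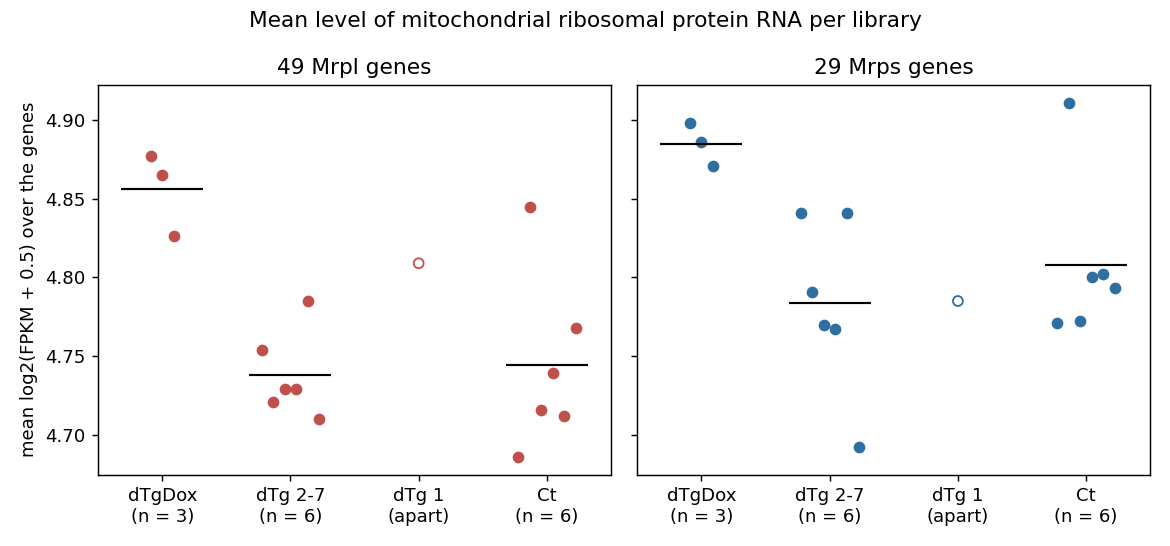
Mean log2(FPKM + 0.5) of the 49 Mrpl genes (left) and the 29 Mrps genes (right) in each library, with the group mean as a line and dTg 1 as an open circle; the axis does not start at 0. All 3 dTgDox libraries lie above all dTg libraries in both panels, and 1 Ct library, Ct 2, lies within the dTgDox values on the left and above them on the right.

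Lists of other genes of mitochondrial translation were read in dTgDox against dTg, where 9.65% of all genes tested were called higher and 9.22% lower. The counts called in the next 3 lists are too small to set apart from these shares. Of 5 ribosome proteins without an Mrp symbol that were tested, none rose and 1 fell. This was Dap3, a GTP-binding protein of the small subunit. It had 50.7, 36.9 and 51.5 FPKM in dTgDox, against 64.9, 65.3 and 68.5 FPKM (lowest, median, highest) in dTg and 61.5, 63.0 and 66.0 FPKM in Ct. The dTgDox libraries were below all others, with a log2 difference of -0.52 against dTg (SE 0.08, limma adjusted p = 0.000464). Next by p in this list were Aurkaip1, at 0.17 (SE 0.09), and Chchd1, at 0.13 (SE 0.08), which did not pass. Of 12 translation factors none rose and 1 fell, Gfm2, a factor that recycles ribosomes, at -0.26 (SE 0.08, adjusted p = 0.032). Next by p among the factors were Guf1, at -0.38 (SE 0.14), and Mrrf, at 0.31 (SE 0.14), which did not pass. Of 17 mitochondrial tRNA synthetases none passed in either direction. The 3 with the smallest p were Sars2 at -0.25, Mars2 at -0.23 and Yars2 at 0.22, for serine, methionine and tyrosine. Lars2, named after its values were seen, varied too widely to compare, with a log2 difference of -0.29 (SE 0.74). It had 442 FPKM in dTg 2, 206 FPKM in dTg 6 and 116 FPKM in dTgDox 1, against at most 43.0 FPKM in Ct.

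Of 22 factors that assemble the mitochondrial ribosome, 3 rose and 1 fell in dTgDox against dTg, near the 9.65% higher and 9.22% lower among all genes tested. Rpusd4, a pseudouridine synthase acting on mitochondrial RNA, had 5.51, 5.67 and 5.49 FPKM in dTgDox, against 3.84, 4.12 and 4.58 FPKM in dTg. The groups were separate, with a log2 difference of 0.38 (SE 0.07, limma adjusted p = 0.00204). Rpusd3, a related gene, rose by 0.52 on the log2 scale (SE 0.12, adjusted p = 0.00648) and Malsu1, which binds the large subunit during assembly, by 0.31 (SE 0.07, adjusted p = 0.00933). Mrm1, a methyltransferase of mitochondrial ribosomal RNA, fell by 0.99 on the log2 scale (SE 0.30, adjusted p = 0.0357). Of 10 genes of mitochondrial transcription and RNA handling 2 rose, too few to set apart from that background: Slirp, which stabilises mitochondrial messenger RNAs, and the transcription elongation factor Tefm, with log2 differences of 0.30 (SE 0.10, adjusted p = 0.0387) and 0.31 (SE 0.10, adjusted p = 0.0465). Polrmt, next by p in that list, had a log2 difference of -0.40 (SE 0.16, limma adjusted p = 0.102) and did not pass. None of the 13 protein-coding genes of the mitochondrial genome passed, with a median of -0.03. The 3 with the smallest p were mt-Atp8 at -0.15, mt-Atp6 at -0.115 and mt-Nd6 at 0.136. The gene mt-Co1 was listed at 0 in dTgDox 3 and dTg 2.

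Several measures moved with the rise of members in dTgDox. Beside the members' median log2 difference of 0.12 against dTg, that of 82 tested cytosolic ribosomal protein genes was 0.32, and 60 of them rose and none fell. Hippocampal markers rose too, 8 of the 9 tested of 10 listed. Of all genes tested, 9.65% were called higher and 9.22% lower. Among those 8, Dsp and Lct passed the filter on low values only through the dTgDox libraries, so their calls carry little weight. The summed FPKM of all 10 listed was 131.4 to 180 in dTgDox, against 12.8 to 17.8 in dTg and 13.3 to 15.6 in Ct. The 6 oligodendrocyte markers summed to 2627 to 3950 FPKM in dTgDox, against 932.8 to 2553 in dTg and 1033 to 2258 in Ct, with none of the 6 past the threshold. Of 6 astrocyte markers 3 rose and 1 fell, with sums of 961.8 to 1137 FPKM in dTgDox and 757.6 to 979.5 FPKM in dTg. Of 8 striatal markers none passed, with sums of 80.8 to 119 FPKM in dTgDox and 106.2 to 484.4 FPKM in dTg. Of 8 markers of cortical excitatory neurons 1 rose and 3 fell, with sums of 1238 to 1332 FPKM in dTgDox and 1136 to 1778 FPKM in dTg. Of 4 choroid plexus markers 1 rose, with sums of 23.4 to 1960 FPKM in dTgDox, the highest being dTgDox 3, and 1.11 to 124.5 FPKM in dTg. Of 6 microglial markers 1 rose, of 7 tested cerebellar markers 1 fell, and of 8 olfactory bulb markers none passed. Apart from the cerebellar genes Gabra6 and Barhl2, none of the listed markers was at 0 in any of the 15 libraries. The part of these tissue differences in the members' result was not tested.

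Transcript length moved with the result as well. Members are short, with a median longest transcript of 1327.5 bases against 3138 bases for protein-coding genes tested, and 49 of 78 were in the shortest of 5 equal classes of genes (102 to 1756 bases). The 49 members there had a median log2 difference of 0.14 in dTgDox against dTg, and 11 of them rose (limma). Of the other 2846 genes of that class 16.1% were called higher and 5.27% lower, with a median of 0.09. In the next classes up, 10, 8 and 9 members had medians of 0.08, 0.11 and 0.05, with 2, 2 and 0 that rose, and the other genes had medians of 0.02, -0.02 and -0.04. The longest class held 2 members, with a median of 0.17 and none called, and 8.3% of its other genes were called higher and 16.2% lower, with a median of -0.07. The part of length in the members' result was not tested.

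**Figure D4:**
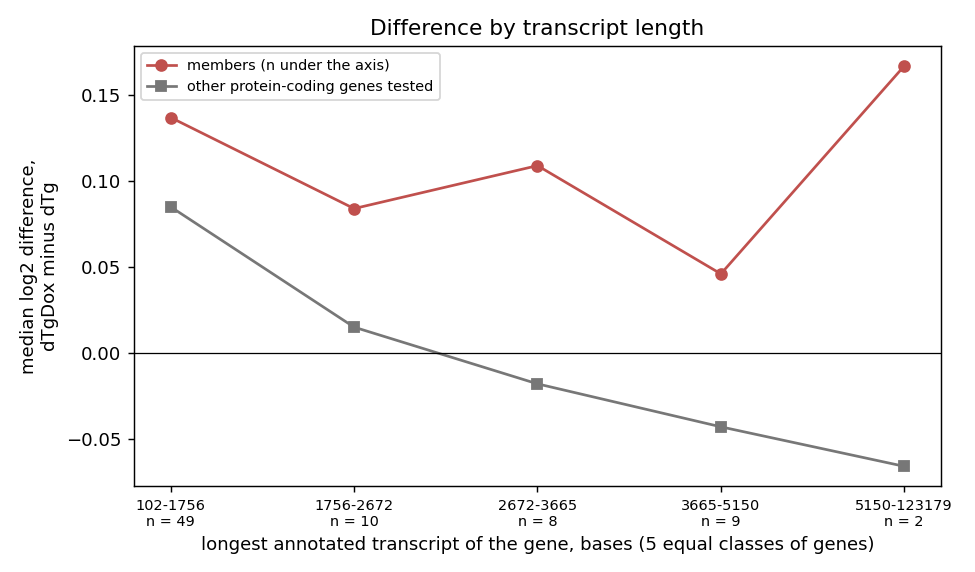
Median log2 difference in dTgDox minus dTg by class of transcript length (5 equal classes of genes), for members (red circles, with their number under each class) and for the other protein-coding genes tested (grey squares). Members lie at 0.14, 0.08, 0.11, 0.05 and 0.17 from the shortest to the longest class, the last with 2 members, and the other genes run from 0.09 to -0.07.

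The library dTg 1, which carries the cerebellar markers, had members at about the usual mean level. Its mean log2 level over the 78 members was 4.80, within the range of the other libraries. It had the lowest sum of all FPKM, and members made up 0.422% of that sum, against at most 0.398% in the other libraries. Its Mrpl genes summed to 1.76 times its Mrps genes, against at most 1.72 times in the others. That sum includes Mrpl48, the member farthest above the dTg mean, whose exons share 708 bases with Rab6a. By mean log2 level, Mrpl minus Mrps was 0.024 in dTg 1, against at most 0.019 in the others. Of 78 members 16 lay above all 15 other libraries, 15 below all and 47 within, which is 20.5%, 19.2% and 60.3%, against 28.5%, 26.3% and 45.2% of all genes tested. Farthest above the dTg mean was Mrpl48, at 120.1 FPKM in dTg 1 against 57.3 to 78.7 FPKM in dTg 2 to 7, a log2 difference of 0.84. The next were Mrpl45 at 0.63, Mrpl24 at 0.53, Mrps35 at 0.45 and Mrps31 at 0.44. Farthest below were Mrpl33 at -0.44, Mrpl36 at -0.43, Mrps12 at -0.33, Mrpl52 at -0.31 and Mrps27 at -0.30. Above all other libraries lay 13 of 49 Mrpl (26.5%) and 3 of 29 Mrps genes (10.3%), and below all lay 7 Mrpl (14.3%) and 8 Mrps genes (27.6%), so that none of these shares was far above that of all genes. These are values of 1 library, with no test.

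**Figure D5:**
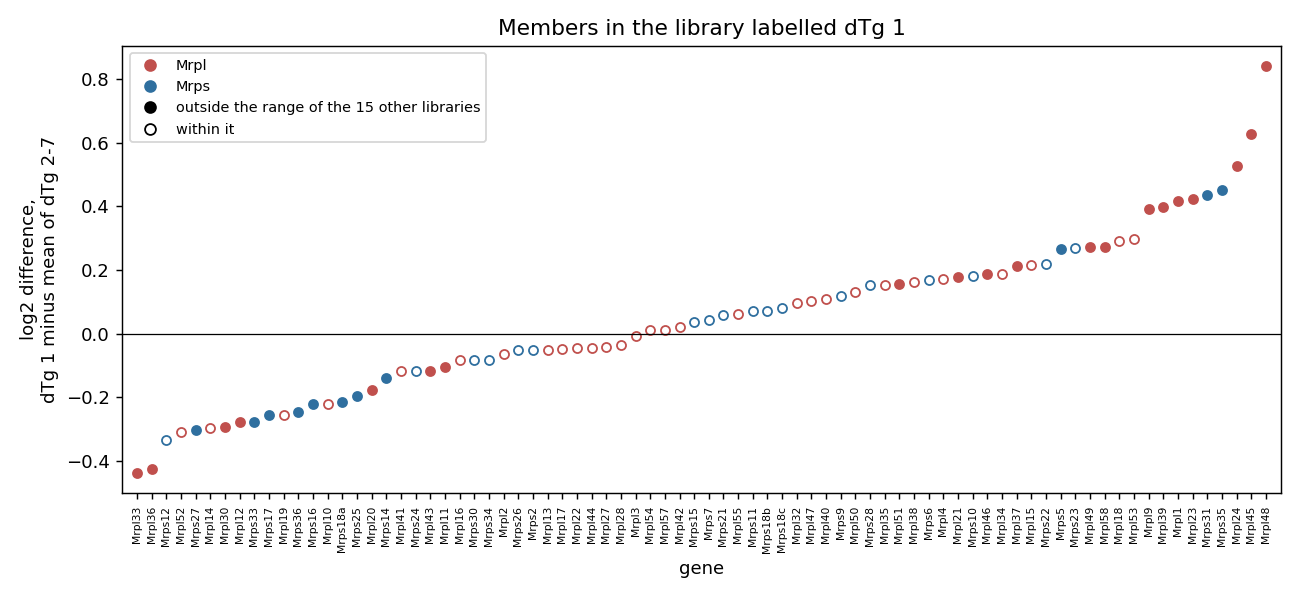
Log2 difference of each member in dTg 1 minus the mean of dTg 2 to 7, sorted; red is Mrpl, blue is Mrps, and filled points lie outside the range of the 15 other libraries. Values run from -0.44 for Mrpl33 to 0.84 for Mrpl48, and 47 of 78 points are open.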

How the data were processed

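PolyA-selected RNA of mouse frontal cortex was read from 1 end, per the labels' protocols. The deposited files hold FPKM values made by the authors. The submitters' processing notes name TopHat2 and DESeq; versions, genome build and strand setting are not given in the sources used. The unit was inferred from the values, whose smallest steps scale with 1 over gene length. Symbols and coordinates came from GENCODE M21 (GRCm38). The 19064 genes that reached 0.5 FPKM in 3 or more of 15 libraries were analysed as log2(FPKM + 0.5) with limma 3.58.1 (R 4.3.3), using a mean for each group and a trended, robust prior. Two-sided p-values were adjusted across all of these genes by Benjamini-Hochberg, threshold 0.05. A log2 difference is on the log2(FPKM + 0.5) scale, which understates changes of low genes. The fit was tested on simulated data. The library dTg 1 and the identical NTg file were left out of the fit. Members, lists and alternatives were chosen with earlier results of these data known. Named genes were the members past the threshold in each comparison (filled to 10 by p), the 5 highest and lowest in Ct, the 5 farthest up and down in dTg 1, the Mrps18 genes, Mrpl10, Mrpl12, Mrps30 and Mrps36, and the 3 smallest p-values of each list; Mrpl15, Mrps33, Mrpl17, Mrpl55 and other members outside this rule were named after their values were seen. Promoters and the miR-211 sequence are from RefSeq (GRCm38.p6), with motif positions counted from base 1 of the 300-base window. Alternatives varied the pseudocount (0.1 or 1), the filter, the scaling, the prior, the libraries and a block on replicate number.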

Additional observations from a re-analysis of the deposited data

Results flagged for a closer look

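In 80 groups of 6 libraries (40 named members in dTg and in Ct), 5 held a library whose gap to its nearest neighbour exceeded Dixon's critical value, which is 6.2%, and chance alone flags about 1 in 20 groups. Mrps21 was low in dTg 7, at 70.8 FPKM, with the other dTg libraries between 90.7 and 96.3 FPKM. In Ct 2, Mrpl12 was high at 39.6 FPKM, above the next library at 35.3 FPKM, and Mrps6 was high at 26.7 FPKM, above the next at 22.8 FPKM. Mrpl23 was low in Ct 3 at 32.1 FPKM, where the others lay between 35.5 and 36.6 FPKM. Mrps23 was high in Ct 6 at 55.7 FPKM, and the next library stood at 50.5 FPKM.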

How the results depend on the processing

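No member was called in dTg against Ct under any alternative run, leaving out each of the 12 libraries of both groups included. In dTgDox against dTg, 15 members passed, and 3 to 16 when 1 library was left out (3 without dTgDox 1, where 5.37% of all genes were called higher; 16 without dTg 4, of which Mrpl3 was called lower and 15 higher, where 9.42% of all genes were called higher). In dTgDox against Ct, 12 passed, and 4 to 20 when 1 library was left out (4 without dTgDox 1 and 20 without Ct 2, of which 1 lower each, where 5.9% and 9.31% of all genes were called higher). With dTg 1 in the fit the counts were 10 and 6, with 4.73% and 4.45% of all genes called higher. No log2 difference of a named member that had passed changed sign under any alternative. Replicate numbers did not pair the libraries, since the deviations of same-numbered libraries correlated at -0.188 to 0.08. With the replicate block, 0 members and 0 of 18484 genes in all passed in dTgDox against dTg. Only replicate numbers 2 and 3 occur in both of these groups, so that fit had little power and decides nothing about the members. In dTgDox against Ct 1 member passed (Mrpl52), with 2.53% of all genes called higher and 2.7% lower. The other alternatives (pseudocount, filter, scaling, prior, only the compared groups) left 12 to 16 members called in dTgDox against dTg and 9 to 14 in dTgDox against Ct. Only 3 dTgDox libraries were available, and depth is known only as an estimate, so no counting intervals were computed.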
